A study of Mus musculus with 2 samples.

Results

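Conventional dendritic cells type 2 (cDC2) were picked out of single-cell RNA profiles of mouse pancreatic tumors by their lectin genes. A cell was taken as cDC2 when at least 2 of Cd209a, Cd209d and Clec10a lay more than 1 scaled unit above the gene's zero level. It was left out when 2 or more of the cDC1 genes Xcr1, Clec9a, Wdfy4, Naaa, Cadm1 and Tlr3, or 2 or more of the macrophage complement genes C1qa, C1qb and C1qc, did so as well. The rule found 63 cells among 9773, with 35 in the Ahr cKO library and 28 in the Ahr fl/fl library. Values of these genes therefore chose the cells and are given as a description only.

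Tumors had been grown for 14 days in the pancreas from MT4, an organoid line of the KPC model of pancreatic adenocarcinoma, and live whole-tumor cells were sorted by DAPI for 10X Genomics capture. The Ahr cKO library came from pooled tumors of 3 C57/BL6 mice with LysM-Cre and floxed Ahr (labelled Ahr fl/fl Lys M). The Ahr fl/fl library came from pooled tumors of 3 C57/BL6 mice that carried the same floxed Ahr alleles without LysM-Cre. The age and sex of the mice were not given in the sources used here. There was 1 library per genotype, the 3 mice in a pool could not be told apart, and no difference between the genotypes has a replicate check or a test.

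Conventional dendritic cells take up antigen in tissues and present it to T cells. Type 1 cells, marked by Xcr1 and Clec9a, depend on the transcription factor Irf8 and are known for presenting antigen to CD8 T cells. Type 2 cells carry several C-type lectins, which are receptors for sugars on microbes and dying cells, and present peptides on MHC class II to CD4 T cells. The product of Ahr, the aryl hydrocarbon receptor, is a ligand-dependent transcription factor that senses plant, microbial and tryptophan-derived compounds. LysM-Cre is driven from the Lyz2 locus and recombines floxed genes mostly in granulocytes and in cells of the monocyte and macrophage line, and in a smaller part of dendritic cells.

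The deposited table held 2000 genes, each scaled over all cells and capped at 10, so values are in scaled units and give no fold change. Each gene's lowest value over fl/fl cells, shared by a median of 96.0% of fl/fl cells, was taken as its zero level, and every level below is the height above it. Of cKO cells, a median over genes of 55.7% lay at that level and 15.3% lay below it, so a low value above zero does not show that a cKO cell held a transcript. Molecule counts per cell, and so the depth, are unknown. A fl/fl cDC2 cell had a median of 153 genes above zero (53 to 361), and the other fl/fl cells had a median of 108. SDs below are over cells, which are not replicates.

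Many cDC2 cells carried a cell barcode that was present in both libraries. Of all cells, 656 barcodes occurred in both, which is 14.3% of cKO cells and 12.6% of fl/fl cells. Among cDC2 cells the shared barcodes made up 26 of 35 in the cKO library (74.3%, exact 95% Clopper-Pearson interval 56.7% to 87.5%) and 13 of 28 in the fl/fl library (46.4%, 27.5% to 66.1%). For comparison, the shares were 7.79% of cKO and 6.86% of fl/fl cells that met the cDC1 rule (2 or more cDC1 genes), and 13.2% of cKO and 8.96% of fl/fl cells that met the C1q rule. Both copies of a barcode lay close together. In 618 of the 656 pairs (94.2%) they fell in the same cluster, and their median distance on the authors' UMAP was 0.252, against 11.5 over all pairs of a cKO and a fl/fl cell.

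The copies also resembled each other across genes. In the 29 pairs with at least 1 cDC2 cell, the correlation of the 2000 values had a median of 0.42 (0.16 to 0.67), against 0.13 over the 970 pairs of a cKO and a fl/fl cDC2 cell with different barcodes. Genes are not independent, so this is a description. Whether these copies are the same cells present in both libraries was not tested, so the genotype of these cells is uncertain. In 10 of the 29 pairs both copies met the rule, in 16 only the cKO copy did, and in 3 only the fl/fl copy. The cKO copy had more of the 3 lectin genes above 1 in 21 pairs, the fl/fl copy in 4, and they were equal in 4. Cd209d was above 1 in 15 cKO copies and in 3 fl/fl copies, and Clec10a in 26 cKO copies and in 16 fl/fl copies. Results below are therefore given for all cDC2 cells. Where stated, they are also given for the 9 cKO and 15 fl/fl cells whose barcode occurred in 1 library. Values given for all cDC2 cells only may change without the shared barcodes.

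**Figure D1:**
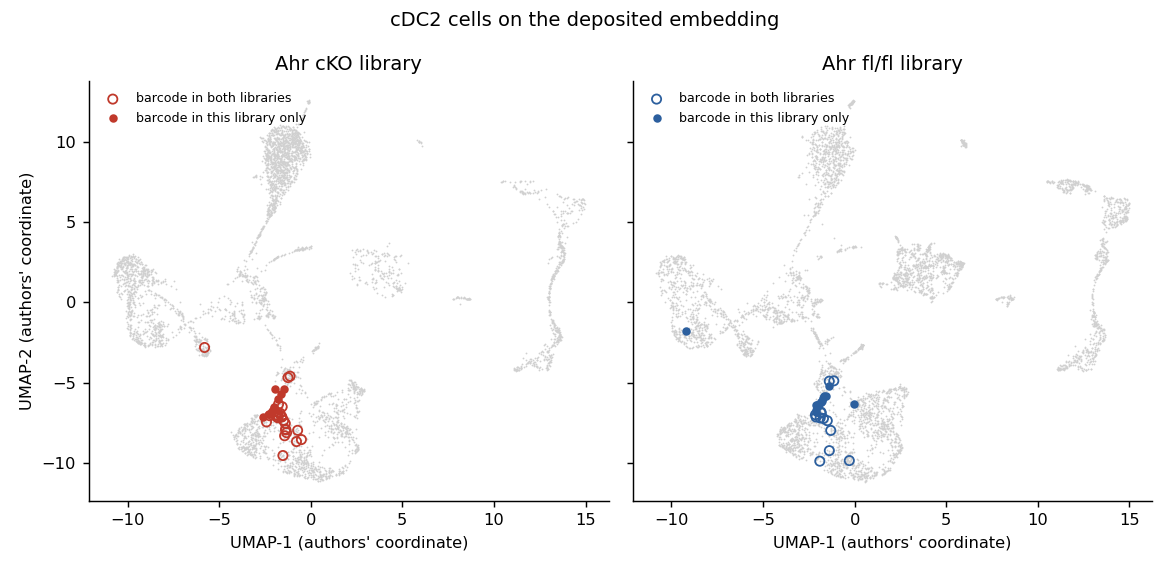
The authors' 2 UMAP coordinates are plotted for each cell, with the cKO library on the left and the fl/fl library on the right; grey points are all cells, open circles are cDC2 cells with a barcode in both libraries and filled circles are cDC2 cells with a barcode in 1 library. Apart from 1 cell in each library, the 35 cKO and 28 fl/fl cDC2 cells lie in 1 region of the map, and open circles make up 26 of the cKO and 13 of the fl/fl cells.

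cDC2 cells were rare in both tumor pools. They made up 0.765% of cKO cells (exact 95% interval 0.533% to 1.06%) and 0.539% of fl/fl cells (0.358% to 0.778%), and the intervals, which cover counting error only, overlapped. Without the shared barcodes the order turned, with 9 of 3921 cKO cells (0.230%, 0.105% to 0.435%) and 15 of 4540 fl/fl cells (0.330%, 0.185% to 0.544%). A Leiden clustering of both libraries placed 27 of 35 cKO and 19 of 28 fl/fl cDC2 cells in 1 cluster, led by H2-DMb1, Cd209a, Cbfa2t3 and Cd7. That cluster held 1.53% of cKO cells and 2.96% of fl/fl cells, so by cluster the share was also lower in cKO. It held 70 cKO cells and 154 fl/fl cells, and so reached further than the lectin rule. The other cDC2 cells were spread over 6 clusters, among them 1 led by Cst3 and Plet1 (3 cKO and 4 fl/fl cells) and 1 led by Lyz2 and Ms4a6c (3 cKO cells and 1 fl/fl cell).

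**Figure D2:**
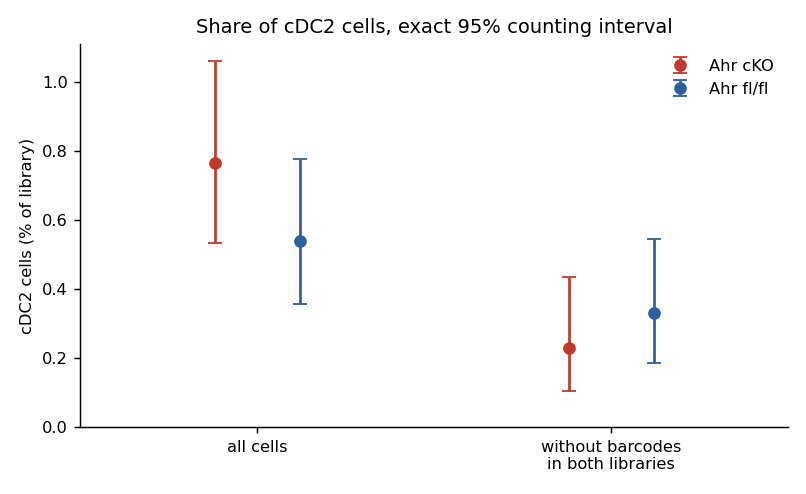
Points give the percentage of each library that met the cDC2 rule and bars give the exact 95% counting interval, with cKO left of fl/fl, for all cells and without barcodes found in both libraries. The cKO point (0.765%) is above the fl/fl point (0.539%) with all cells and below it (0.230% against 0.330%) without the shared barcodes.

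The 3 lectin genes that define the cells lie at 2 places in the mouse genome (GRCm38, GENCODE annotation). Cd209a (ENSMUSG00000031494.7, chr8:3743397-3748984, minus strand) encodes the mouse relative of the human adhesion and pathogen receptor DC-SIGN. Cd209d (ENSMUSG00000031495.8, chr8:3871824-3878555, minus strand) encodes the related lectin SIGNR3 and lies in the same gene group. Clec10a (ENSMUSG00000000318.16, chr11:70156197-70170834, plus strand) encodes MGL1, which binds galactose-type sugars, and its neighbour Mgl2 (ENSMUSG00000040950.13, chr11:70130329-70137550, plus strand) encodes MGL2. The annotated transcripts of Cd209a and Cd209d shared no run of 31 bases. Mgl2 and Clec10a shared 419 such runs, 19.3% of those of Mgl2 and 13.7% of those of Clec10a, so reads of these 2 genes may have been split between them or dropped, and their values are uncertain.

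The promoter windows of Cd209a and Cd209d are shown because these neighbouring, related genes chose many of the cells. The windows, from RefSeq on GRCm38.p6, run 5′ to 3′ on the gene's strand over 250 bases before and 50 bases after the start. The capitals mark the longest run of bases found in both windows. The Cd209a window is chr8:3748935-3749234 and the Cd209d window is chr8:3878450-3878749, both on the minus strand.
Cd209a: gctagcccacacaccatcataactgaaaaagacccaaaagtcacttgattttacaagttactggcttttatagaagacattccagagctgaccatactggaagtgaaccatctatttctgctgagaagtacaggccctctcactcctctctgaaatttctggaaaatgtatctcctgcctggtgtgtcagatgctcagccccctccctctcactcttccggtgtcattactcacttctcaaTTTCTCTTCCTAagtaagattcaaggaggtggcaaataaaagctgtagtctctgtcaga
Cd209d: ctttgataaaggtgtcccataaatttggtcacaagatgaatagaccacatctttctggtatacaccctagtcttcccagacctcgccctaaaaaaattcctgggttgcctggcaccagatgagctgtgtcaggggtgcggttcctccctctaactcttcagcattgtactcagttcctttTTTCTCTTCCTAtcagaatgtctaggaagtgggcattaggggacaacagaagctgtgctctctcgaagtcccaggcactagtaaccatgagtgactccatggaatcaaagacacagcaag
The shared run TTTCTCTTCCTA has 12 bases. Its first base lies 9 bases before the RefSeq start of Cd209a and 70 bases before that of Cd209d. The GENCODE gene Cd209d begins further upstream (chr8:3878555, minus strand), so the distance for Cd209d depends on the annotation and is shorter by GENCODE. It was found on either strand in 9 of 32851 windows of the same length (0.0274%), these 2 included. A match is a description of letters and does not show that a factor binds.

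Cd209a was above 1 in 28 of 35 cKO and 26 of 28 fl/fl cDC2 cells. In cKO cells its level ran from −1.96 through a median of 3.54 to 10.1 (mean 4.86, SD 4.22). In fl/fl cells it ran from 0 through a median of 10.1 to the same cap (mean 7.05, SD 3.94). The ranges overlap, and the median fl/fl cell sits at the cap, so the upper spread is hidden.

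Cd209d was above 1 in 21 of 35 cKO and 11 of 28 fl/fl cells, while its mean was 2.98 (SD 3.81) in cKO and 3.46 (SD 4.54) in fl/fl cells. Clec10a was above 1 in 32 of 35 cKO and 23 of 28 fl/fl cells, with means of 3.76 (SD 3.55) in cKO and 5.61 (SD 4.06) in fl/fl cells. For both genes the share of cells and the mean thus point in opposite directions. All 3 genes were above 1 in 11 cKO and 4 fl/fl cells, and Cd209a with Clec10a alone in 14 cKO and 17 fl/fl cells. Cd209d with Clec10a made up 7 cKO and 2 fl/fl cells, and Cd209a with Cd209d 3 cKO and 5 fl/fl cells.

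Cells near the threshold differed between the libraries. The second-highest lectin gene of the cKO cells just inside it stood at 1.08, 1.10 and 1.12, and that of the cells just outside at 0.99, 0.94 and 0.93. In fl/fl cells the values were 1.01, 1.01 and 1.5 inside and 0.71, 0 and 0 outside. Within 0.5 of the threshold there were 9 cKO cells inside and 20 outside, but 3 fl/fl cells inside and 1 outside. The cDC1 and C1q genes removed 3 cKO cells and no fl/fl cell that had passed on the lectin genes. Outside the rule, Cd209a was above 1 in 0.62% of cKO and 0.50% of fl/fl cells, and in 0 of 413 fl/fl cells of the C1q rule (up to 0.726% allowed by a count of 0). Clec10a was above 1 in 1.87% of the other cKO cells and 2.09% of the other fl/fl cells, and in 7.84% of fl/fl cells of the cDC1 rule.

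**Figure D3:**
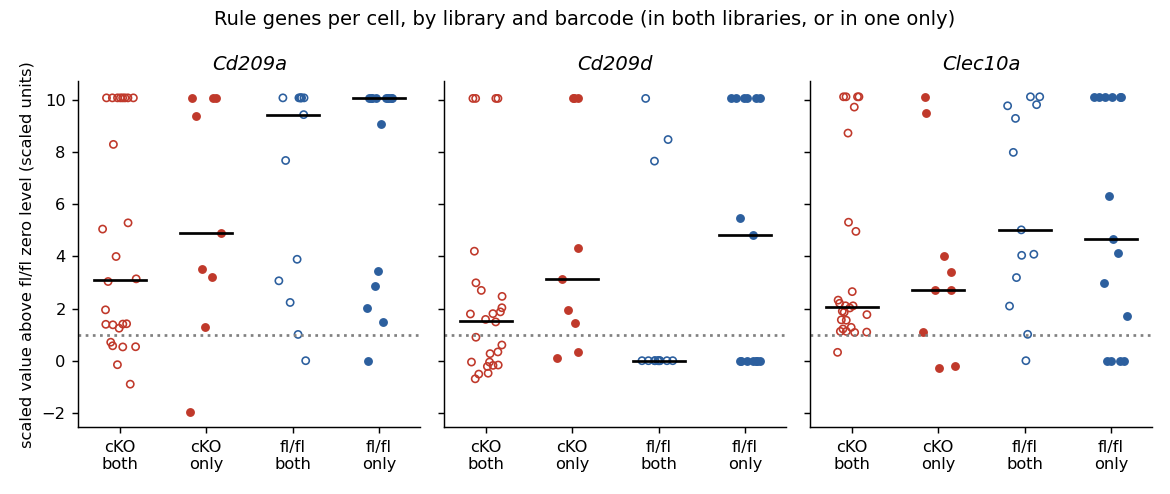
Each point is a cDC2 cell, plotted by its scaled value above the fl/fl zero level for Cd209a, Cd209d and Clec10a, with cKO left of fl/fl and cells split by whether their barcode is in both libraries (open) or in 1 (filled); black lines are medians and the dotted line is the threshold of 1. Many cKO cells with shared barcodes sit between 1 and 3, whereas fl/fl cells lie mostly at 0 or well above 1, and many cells of both libraries are at the cap.

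Genes that the rule did not name gave the cells the profile of antigen-presenting cells. In the fl/fl library 46 of 2000 genes (2.3%) were higher by at least 0.5 in cDC2 cells than in all other cells and 1 gene (0.05%), the chromatin protein gene Hmgb2 at −0.53, was lower. In the cKO library 68 (3.4%) were higher and 1 (0.05%) lower. The cells were chosen on the same profiles, so these counts are a description. After the 3 lectin genes, the largest differences in fl/fl cells were H2-DMb1 (2.33), part of the chaperone that loads peptides on MHC class II, the creatine kinase gene Ckb (1.65), and Cd7 (1.54), a surface protein best known from T and NK cells. They were followed by Idi1 (1.29), a sterol pathway enzyme, the inhibitory lectin-like receptor gene Klrb1b (1.29), and the MHC class II chains H2-Aa (1.24), H2-Ab1 (1.23) and H2-Eb1 (1.23). Ms4a6c (1.20), Tmem176b (1.18), the transcriptional corepressor gene Cbfa2t3 (1.14), Mgl2 (1.09) and Ifitm1 (1.04) came next.

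Flt3, the receptor whose ligand sustains dendritic cells, was above 1 in 8 of 35 cKO and 5 of 28 fl/fl cDC2 cells, in 22.5% of fl/fl cells of the cDC1 rule and in 0 of 413 fl/fl cells of the C1q rule, which allows a share of up to 0.726%. Of 14 genes shared by dendritic cells, 9 were in the table. Of these 9, 5 were higher by 0.5 in cKO and 6 in fl/fl cDC2 cells than in the other cells of the library. For this list and the next, the share of all 2000 genes that were higher was 3.4% in cKO and 2.3% in fl/fl. Of 23 further cDC2 genes, 14 were in the table and 5 were higher in each library: Cd7, Ccr2, Tmem176a and Tmem176b in both, Klf4 in cKO and Mgl2 in fl/fl. The defining cDC2 genes Sirpa, Itgam and Irf4 were not among the 2000 genes and were not analysed here, so the label rests on the lectins and on these genes, and cDC2 cannot be told apart from monocyte-derived dendritic cells here.

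Markers of lymphoid, granulocytic, epithelial and stromal cells were mostly at or near zero, and monocyte markers were not. The keratins Krt8, Krt18 and Krt19, the T cell gene Cd3e and the NK cell gene Ncr1 were above 1 in no cDC2 cell of either library. At least 2 markers were above 1 in 0 cKO and 0 fl/fl cells for neutrophils, B cells, epithelium, fibroblasts, erythroid cells and mast cells, in 2 cKO cells and 1 fl/fl cell for T cells, and in 1 cKO and 0 fl/fl cells for NK cells. For macrophages, with 10 of 13 markers in the table, the count was 4 cKO and 4 fl/fl cells, and the summed level ran from 0.20 to 7.31 in cKO and from 0 to 13.8 in fl/fl cells. For monocytes, with 10 of 12 markers in the table, it was 19 cKO and 9 fl/fl cells, and the sum ran from 0.26 through a median of 4.43 to 12.3 in cKO and from 0 through 2.90 to 14.6 in fl/fl cells. Monocyte markers include Ccr2, the chemokine receptor that brings monocytes out of bone marrow, which dendritic cell precursors and cDC2 also use. It was above 1 in 18 of 35 cKO and 10 of 28 fl/fl cDC2 cells. Fcgr1, which encodes the Fc receptor CD64 of macrophages and monocyte-derived cells, was above 1 in 7 of 35 cKO and 11 of 28 fl/fl cells. Of the 18 measured genes of migratory dendritic cells (23 listed), none was counted as higher in cDC2 cells of either library. As only 3.4% of all 2000 genes were higher in cKO and 2.3% in fl/fl, this count is near that share. At least 2 of these 18 genes were above 1 in 1 of 35 cKO and 4 of 28 fl/fl cells. Their summed level ran from −0.61 to 9.01 in cKO and from 0 to 11.6 in fl/fl cells. Fscn1 and Cacnb3 were above 1 in no cDC2 cell.

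Set against cells of the cDC1 rule within the fl/fl library, 41 genes (2.05%) were higher by 0.5 and 76 (3.8%) lower in cDC2 cells. Apart from the lectins, the highest were Cd7 (1.72), H2-DMb1 (1.59), Idi1 (1.37), Ms4a6c (1.29), Tmem176b (1.27), Klrb1b (1.10) and Ccr2 (1.07). Among the lowest were the cDC1 genes Xcr1 (−3.11), Clec9a (−2.92), Naaa (−2.50), Wdfy4 (−1.99) and Cadm1 (−1.78). These are genes of the rules that chose both groups, so their low place was fixed beforehand, and they are counted in the 76. Outside the rules, the lowest were the protease inhibitor gene Cst3 (−3.28), Plet1 (−1.91), Irf8 (−1.84), A530099J19Rik (−1.80) and Dnase1l3 (−1.72). Irf8, the factor that cDC1 cells need, averaged 0.25 in fl/fl cDC2 cells and 2.08 in fl/fl cells of the cDC1 rule. Set against cells of the C1q rule, 40 genes (2%) were higher and 75 (3.75%) lower, and the lipoprotein gene Apoe averaged 0.03 in fl/fl cDC2 cells and 1.89 in fl/fl cells of the C1q rule.

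**Figure D4:**
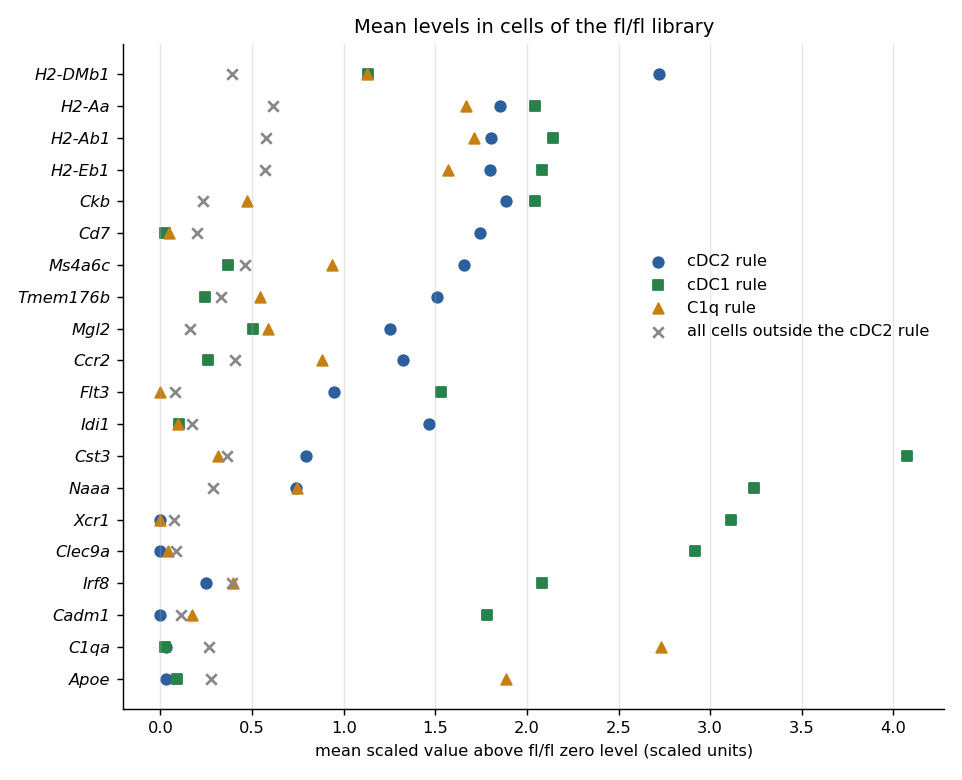
Points give the mean scaled value above the zero level of each gene in fl/fl cells of the cDC2 rule, of the cDC1 rule, of the C1q rule and in all cells outside the cDC2 rule. H2-DMb1 (2.72), Cd7 and Idi1 are highest in cDC2 cells, Cst3 and Xcr1 in cells of the cDC1 rule, and C1qa and Apoe in cells of the C1q rule. H2-Aa, H2-Ab1 and H2-Eb1 are high in all 3. Xcr1, Clec9a, Naaa, Cadm1 and C1qa are genes of the rules, so their contrast was fixed by the choice of cells.

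Each of the 5 described MHC class II genes differed by less than 0.25 between the 2 libraries when all cDC2 cells were used. Of all described genes only 9.5% were higher and 13.6% lower by 0.25, so most genes differed by less as well. The MHC class II differences also depended on which cells were taken. With membership from 1.5 scaled units H2-Eb1 differed by −0.48 and H2-Aa by −0.29, and with membership from 0.5 H2-Eb1 differed by −0.49. In the main cluster H2-Ab1 differed by 0.34. Of 11 MHC class II genes 5 were in the table, and 4 were higher by 0.5 in cDC2 cells than in other cells in each library. H2-DMb1 was above 1 in 26 of 35 cKO and 23 of 28 fl/fl cells, and ran from 0.34 through 2.83 to 9.97 in cKO and from 0 through 2.52 to 6.22 in fl/fl cells. Its mean was 2.84 (SD 2.14) in cKO and 2.72 (SD 1.63) in fl/fl cells, so the difference (0.12) is small beside the spread over cells. H2-Aa averaged 1.92 (SD 1.23) in cKO and 1.85 (SD 1.10) in fl/fl cells. H2-Eb1, a beta chain gene of the second MHC class II molecule of mice, averaged 1.66 (SD 1.13) in cKO and 1.80 (SD 1.40) in fl/fl cells.

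Among cells with a barcode in 1 library the picture differed. H2-Ab1, the beta chain partner of H2-Aa, had a median of 0.50 in 9 cKO cells and 1.10 in 15 fl/fl cells, and was above 1 in 3 of 9 cKO and 9 of 15 fl/fl cells (mean difference −0.81). The difference was −0.52 for H2-DMb1, −0.47 for H2-Eb1 and −0.38 for H2-Aa. The median over the 5 genes was −0.47, against 0.07 with all cDC2 cells. By 0.25, 4 of the 5 were lower and 0 higher, against 23.8% lower and 15.4% higher of all described genes. Of these 9 cKO cells, 3 carried plasmacytoid markers, described further on. Without those cells as well, H2-Ab1 differed by −0.53, H2-Eb1 by −0.02, H2-Aa by 0.15 and H2-DMb1 by 0.18, and the median over the 5 genes was 0.15.

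The lectin and surface receptor genes beyond the rule varied from cell to cell. Mgl2 was above 1 in 5 of 35 cKO and 7 of 28 fl/fl cDC2 cells, with a highest value of 4.88 in cKO and 10.1 in fl/fl cells and a mean of 0.43 (SD 0.96) in cKO and 1.25 (SD 2.59) in fl/fl cells. Most cells of both libraries thus had little or none, and a few fl/fl cells at high values set the mean. Klrb1b behaved in the same way, above 1 in 4 of 35 cKO and 6 of 28 fl/fl cells with means of 0.73 (SD 1.88) in cKO and 1.38 (SD 3.04) in fl/fl cells. The mannose receptor gene Mrc1, which macrophages also carry, was above 1 in 2 of 35 cKO and 5 of 28 fl/fl cells. Of 24 myeloid C-type lectins, 14 were in the table and 12 could be compared between the libraries; 5 of them were lower by 0.25 in cKO, namely the 3 lectins of the rule, Mgl2 and Mrc1, and none was higher. Over all described genes 13.6% were lower and 9.5% higher, and 3 of the 5 are the genes whose values chose the cells.

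Genes of sterol synthesis were high in a part of the cells. The list was drawn up after their values were seen, so its counts are a description. Of its 20 genes 5 were in the table, and 4 were higher by 0.5 in cDC2 cells than in the other cells of each library. Over all 2000 genes the share was 3.4% in cKO and 2.3% in fl/fl. Idi1 was above 1 in 7 of 35 cKO and 8 of 28 fl/fl cells and Hmgcs1, the synthase at the head of the pathway, in 7 of 35 cKO and 8 of 28 fl/fl cells. The median of Idi1 was 0.38 in cKO and 0 in fl/fl cells, and its highest value was 8.68 in cKO and 10.1 in fl/fl cells, so the mean of 1.20 (cKO) and 1.47 (fl/fl) rests on a minority. Fdps, the farnesyl diphosphate synthase gene, averaged 1.65 (SD 2.18) in cKO and 0.88 (SD 2.08) in fl/fl cells, above 1 in 12 of 35 cKO and 6 of 28 fl/fl cells. Msmo1, a sterol oxidase gene, averaged 1.48 (SD 2.53) in cKO and 0.90 (SD 1.70) in fl/fl cells. Of the 4 described sterol genes, Fdps and Msmo1 were thus higher and Idi1 (−0.26) lower in cKO, and Hmgcs1 (−0.24) did not reach 0.25. Over all described genes 9.5% were higher and 13.6% lower.

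Across the 28 fl/fl cDC2 cells the MHC class II chains went together, with a Spearman rho of 0.89 for H2-Aa and H2-Eb1, 0.82 for H2-Aa and H2-Ab1 and 0.70 for H2-Ab1 and H2-Eb1. Idi1 and Hmgcs1 had a rho of 0.57, and both were above 1 in 5 cells. Cd209a had a rho of 0.46 with H2-DMb1, 0.20 with Clec10a and −0.10 with Cd209d. A cDC2 cell not above 1 for 1 lectin of the rule must be above 1 for the other 2. The rho values between lectins are therefore shaped by the rule and cannot be ranked against that with H2-DMb1. Cells of 1 library share their preparation and may differ in depth, so these are descriptions with no test. No cell was above 1 for both Ccr2 and Lyz2, and 2 were above 1 for both Ccr2 and Flt3. Singly, Ccr2 was above 1 in 10, Lyz2 in 3 and Flt3 in 5 of the 28 cells. These numbers are too small to read either overlap as a pattern.

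Between the genotypes, 442 genes were described, those above 0.5 in at least 10% of fl/fl cDC2 cells. The filter used the fl/fl cells, so genes high only in cKO cells are not among them. Of these genes 42 (9.5%) were higher by at least 0.25 in cKO cDC2 cells and 60 (13.6%) were lower, and the median difference over all of them was −0.011. In cells with a barcode in 1 library, 68 (15.4%) were higher and 105 (23.8%) lower, with a median of −0.048. In both sets of cells 20 genes were higher and 43 lower, and 16 genes past 0.25 with all cells had the other sign without the shared barcodes. An estimate that takes off the local shift of the cKO values gave 43 higher (11.4%) and 32 lower (8.51%) of 376 genes. Over all 2000 genes, 81 (4.05%) were higher and 81 (4.05%) lower, so lower genes did not outnumber higher ones there. With 35 and 28 cells and 1 library each, these counts carry no test.

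**Figure D5:**
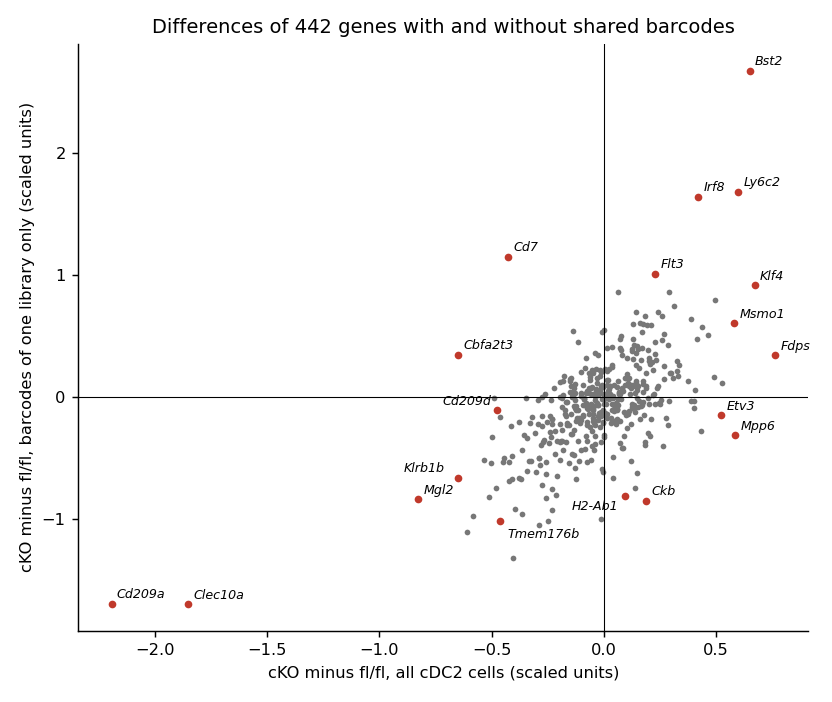
Each point is 1 of 442 genes, plotted by its mean cKO minus fl/fl difference over all cDC2 cells (horizontal) and over cDC2 cells with a barcode in 1 library (vertical), both in scaled units; red points are named. Cd209a, Clec10a and Mgl2 are lower in cKO on both axes, Klf4, Bst2 and Ly6c2 are higher on both, and Cd7 and Cbfa2t3 are lower with all cells and higher without shared barcodes.

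By all 3 calculations, which share cells and are not independent, 13 genes were higher and 18 lower in cKO cDC2 cells. Klf4, a transcription factor that some cDC2 need in mice, was higher by 0.67 with all cells, 0.92 without shared barcodes and 0.57 with the local shift removed. It was above 1 in 17 of 35 cKO and 9 of 28 fl/fl cells, and in 3 of 9 cKO and 1 of 15 fl/fl cells without shared barcodes. Its highest value was 10.3 in cKO and 3.17 in fl/fl cells, and the ranges overlapped. Its mean was 1.43 in cKO and 0.76 in fl/fl cells with all cells, and 1.04 and 0.12 without shared barcodes. Cells with shared barcodes thus had more Klf4 in both libraries, and they made up a larger part of the cKO cells. The part of this mix in the difference was not tested. Mgl2 was lower by these 3 calculations (−0.83, −0.84 and −0.87 in the same order), but by −0.058 among cDC2 cells of the main cluster, which ends the call. Also lower by the 3 calculations was Klrb1b (−0.65, −0.66 and −0.56, and −0.34 in the main cluster). Further lower genes were Ccnd2, a cyclin of the G1 phase (−0.50, −0.54 and −0.57), and Mrc1 (−0.50, −0.33 and −0.50), though Mrc1 had the other sign in the main cluster (0.13). Ccnd2 (−0.29), Klf4 (0.58) and Fdps (0.62) kept their sign and stayed past 0.25 there. Fdps was higher by 0.76, 0.34 and 0.56 and Msmo1 by 0.58, 0.61 and 0.54, but Msmo1 was below 0.25 in the main cluster (0.24) and with membership from 1.5 (0.23). The lectins of the rule, whose values chose the cells, were lower in mean in cKO with all cells (Cd209a −2.19, Clec10a −1.85, Cd209d −0.48).

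A few cKO cells carried plasmacytoid dendritic cell markers and moved several of these values. Plasmacytoid cells are specialised producers of type I interferon, and 5 of 11 listed markers, Siglech, Ccr9, Klk1, Cox6a2 and Runx2, were in the table. Their summed level ran from −0.82 to 37.4 in cKO and from 0 to 10.2 in fl/fl cDC2 cells, and Siglech, Ccr9, Klk1 and Cox6a2 were at 0 in all 28 fl/fl cells. At least 2 were above 1 in 3 of 35 cKO cells and in 0 of 28 fl/fl cells, which allows a share of up to 10.7%. All 3 had a barcode in 1 library, so they were 3 of the 9 such cKO cells. In the whole libraries 61 other cKO and 22 other fl/fl cells met the same criterion. Siglech averaged 8.05 in these 3 cells, Cd7 5.31, Bst2 5.86 and Irf8 5.60.

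Bst2, an antiviral tether that also marks plasmacytoid cells, was higher in cKO by 0.65 with all cDC2 cells and by 2.68 without shared barcodes, by 0.20 with all cells other than these 3, and by 1.31 without these 3 and the shared barcodes. Irf8 was higher by 0.42 and 1.64 in the same order, and differed by −0.04 without these 3 cells and by −0.15 without them and the shared barcodes. Ly6c2, a surface protein gene of monocytes and plasmacytoid cells, was higher by 0.60 and 1.69, and by 0.32 and 0.74 without the 3 cells. Without the 3 cells and the shared barcodes, 67 of the 442 described genes (15.2%) were higher by 0.25 and 111 (25.1%) lower. The 13 higher and 18 lower genes of the 3 calculations had been picked in part on these same cells. That 5 of the 13 and 17 of the 18 stayed past 0.25 is therefore no independent support. Klf4 (0.99) and Mgl2 (−0.84, against −0.058 in the main cluster) were among those that stayed, whereas Fdps (−0.09) and Msmo1 (0.19) were not.

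Ahr itself (ENSMUSG00000019256.17, chr12:35497974-35535038, minus strand) was not lower in mean in cKO cDC2 cells. It was above 1 in 5 of 35 cKO and 5 of 28 fl/fl cells, ran from −0.15 through 0.28 to 5.12 in cKO and from 0 through 0 to 4.75 in fl/fl cells, and differed by 0.14. Without shared barcodes it was above 1 in 1 of 9 cKO and 3 of 15 fl/fl cells and differed by 0.09. The table does not say which part of the transcript was read, so these values do not check the deletion. Of 9 AHR-induced genes 2 were measured. Cyp1b1, an enzyme gene that Ahr switches on, was above 1 in no cDC2 cell, and Scin averaged 0.11 in cKO and 0 in fl/fl cells.

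Lyz2 (ENSMUSG00000069516.8, chr10:117277331-117282321, minus strand), the gene whose promoter drives the Cre, was above 1 in 8 of 35 cKO and 3 of 28 fl/fl cDC2 cells, with means of 0.77 (SD 1.09) in cKO and 0.37 (SD 0.67) in fl/fl cells. All of those cells had shared barcodes: without them Lyz2 was above 1 in 0 of 9 cKO and 0 of 15 fl/fl cells, and its highest value was 0.28 in cKO and 0.68 in fl/fl cells. Among the other cells of the tumor it was above 1 in 16.01% of cKO and 16.54% of fl/fl cells.

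Other pathways showed few described genes and small medians. Of 17 measured interferon response genes (22 listed), 11 were described, 2 were higher and 1 lower in cKO, against 9.5% and 13.6% of all described genes, and the median was −0.07. Of 18 measured myeloid chemokine genes, 6 were described, and Ccl7 (−0.49) and Ccl2 (−0.29) were lower, against 13.6% of all described genes. With membership from 1.5 scaled units both turned, to 0.047 for Ccl7 and 0.026 for Ccl2, and with membership from 0.5 both stayed lower (−0.49 and −0.39). In the main cluster Ccl2 was 0.13 and Ccl7 did not pass 0.25. None of the 6 passed 0.25 without shared barcodes, where Ccl7 and Ccl2 were above 1 in no cell of either library. Of 9 measured inflammatory cytokine and mediator genes (16 listed) 3 were described and none passed 0.25. Of 8 described dissociation and stress genes 3 were higher in cKO, against 9.5% of all described genes, the immediate early genes Fos (0.53) and Dusp1 (0.31) and the heat shock gene Hsph1 (0.43). Without shared barcodes Hsph1 turned to −0.27, and Fos and Dusp1 did not reach 0.25, at 0.12 and 0.16, while the heat shock gene Hspa1b was higher by 0.30. In all, 1 of the 8 was higher and 2 lower there, near the 15.4% higher and 23.8% lower of all described genes without shared barcodes. The costimulation gene Cd83, known from maturing dendritic cells, was higher by 0.40 and turned to −0.09 without shared barcodes.

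Cells with shared barcodes were also set against cells with a barcode in 1 library within each library, a comparison chosen after the values were seen. Of the 442 described genes, 90 differed by 0.5 in cKO and 120 in fl/fl cells, and of these 21 were higher and 10 lower in shared cells of both libraries, and 5 went in opposite directions. The genes named here were picked for having the same direction in both, and the shared cells of the libraries are copies of the same barcodes in part, so this is no independent support. The stress factor gene Atf3 was above 1 in 13 of 26 shared and 0 of 9 other cKO cells, and in 9 of 13 shared and 0 of 15 other fl/fl cells. Ckb was higher in shared cells by 2.30 in cKO and by 1.45 in fl/fl, Fos by 1.31 and 1.23, Hspa1a by 1.09 and 1.28, and Vim by 0.86 and 0.85. Cd7 went the other way, above 1 in 1 of 26 shared and 9 of 9 other cKO cells, and in 2 of 13 shared and 9 of 15 other fl/fl cells. Cbfa2t3 was lower in shared cells, with a difference of −2.15 in cKO and −1.28 in fl/fl. In the whole tumor, the cluster led by Vim, Atf3, Cd14 and Ccl2 consisted almost entirely of shared barcodes, with 99.4% of its cKO and 94.3% of its fl/fl cells, against 44.3% of cKO and 22.1% of fl/fl cells in the cluster that held most cDC2. The mix of shared and other cells therefore differed between the genotypes (26 of 35 against 13 of 28), and the part of that mix in each difference above, beyond the values given without shared barcodes, was not tested.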

How the data were processed

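The authors deposited a scaled score per gene and cell and 2 UMAP coordinates per cell, a second kind of score. Cell Ranger 3.0.0, Seurat 3.1.4 and the builds mm10 and GRCm38 are listed without a role per the submitters' processing notes. Filters on cells, doublet removal and any correction between libraries are not given in the sources used here. A median over genes of 96.0% of fl/fl cells lay at the gene's lowest fl/fl value. Of cKO cells, 55.7% lay at that value and 15.3% lay below it (medians over genes). Whether a correction between libraries shifted the cKO values was not tested, and each difference between genotypes may include such a shift. Values reach from −25.9 to a cap of 10, and a gene's SD over all cells had a median of 0.883. The library was read from the end of each cell's name. The zero level of a gene is its minimum over fl/fl cells. Cells were clustered with scanpy 1.11.5 in Python 3.11.15 (30 principal components, 15 neighbours, Leiden resolution 1). Differences are means over cDC2 cells, cKO minus fl/fl, counted from 0.25 (0.5 between cell classes). The local shift of a cKO cell was taken as the 0.3 quantile of a gene over its 30 nearest cKO cells, limited to genes that fewer than 40% of fl/fl cDC2 cells held above 0.5. Doublets were not called by a tool; cells with markers of another cell type were left out as an alternative. The choice of cells by the rule and the difference of means were tested on simulated data. Those data had no shift between libraries, no cap and no shared barcodes. The clustering and the local shift were not tested in this way. Genes named in the text are Ahr, Lyz2, the lectins of the rule, the 20 largest differences from other fl/fl cells, the 10 largest and 10 smallest against the cDC1 rule and between genotypes, and up to 4 per list; other genes named, and the sterol list, were chosen after their values were seen. The cells and gene lists were chosen with earlier results of these data known. The alternatives without shared barcodes and without plasmacytoid markers were added after seeing the data. One gene is not reported here.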

Additional observations from a re-analysis of the deposited data

How the results depend on the processing

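No paired analysis was possible because there was 1 library per genotype, and for the same reason no library could be left out. The share of cDC2 cells (0.765% cKO, 0.539% fl/fl, 0.226 points higher in cKO) kept its direction at thresholds of 0.5 and 1.5, without the exclusions, without keratin-positive cells, without possible doublets and with a local zero level, at 0.0869 to 0.507 points. With all 3 lectin genes it was 0.240% in cKO and 0.0770% in fl/fl, and by cluster 1.53% in cKO and 2.96% in fl/fl (−1.43 points). Without shared barcodes it was 0.230% in cKO and 0.330% in fl/fl (−0.101), and without plasmacytoid-marker cells as well 0.153% in cKO and 0.330% in fl/fl (−0.177). The counts of 42 higher and 60 lower genes became 8 and 11 from a difference of 0.5, 68 and 105 without shared barcodes, 67 and 111 without plasmacytoid-marker cells as well, 81 and 81 over all 2000 genes, and 32 lower with the local shift removed. The MHC class II median (0.07) became −0.47 without shared barcodes and 0.15 without both sets of cells, and the hypoxia and glycolysis median (0.105) became −0.15 without both sets of cells.

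The sign of a difference past 0.25 turned as follows, and the cause was not tested. In shares of cells above 1 (points): Cd209d 20.7, Clec10a 9.29 and Usp18 5. With values capped at 5, Cd209d was 0.0022. With the local shift removed, Lyz2 was −0.10. Without cells holding markers of another cell type Irf8 was −0.056, and without plasmacytoid-marker cells −0.043. In the main cluster alone Ccl2 and Mrc1 were both 0.13. At a threshold of 1.5 Ccl2 was 0.026, Ccl7 0.047 and F13a1 0.0095, and at 0.5 Hsph1 was −0.088. Without shared barcodes Cbfa2t3 was 0.35, Cd7 1.15, Idi1 0.031, Cd83 −0.089, Etv3 −0.15, Gbp2 −0.055, Hsph1 −0.27, Lyz2 −0.029 and Mpp6 −0.31. Without both sets of cells Cd7 was 0.43, Usp18 0.00093, Cd83 −0.020, Etv3 −0.089, Fdps −0.086, Gbp2 −0.055, Hsph1 −0.0066, Irf8 −0.15 and Mpp6 −0.49. With 9 and 15 cells left without shared barcodes, 1 or 2 cells can set a mean, and depth per cell is unknown.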
